A study of Mus musculus with 18 samples.

Results

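The comparison set 5 lung tumours with a high level of Birc5 RNA against 7 with a low level. Birc5 encodes survivin, a subunit of the chromosomal passenger complex that is made mainly in dividing cells, and its RNA is a common marker of proliferation. The classes were chosen by the measured Birc5 level: a tumour was called high where it was 7.5 or more on the log2 scale and low otherwise, and the 12 tumours are all the tumour arrays among the 18 arrays of the study. Because Birc5 set the classes, its own levels and those of other cell cycle genes are given as a description, without a test.

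RNA came from lungs of B6C3F1/N mice in an inhalation study of cobalt metal particles, and each sample was hybridised to an Affymetrix 3′ expression array. The mice were 5 to 6 weeks old at the start. Male and female mice breathed air with cobalt metal at 5, 2.5, 1.25 or 0 mg/m3, 6 hours a day on 5 days a week, for up to 105 weeks. The 3 groups had 6 arrays each: lung of vehicle control mice (control lung), tumours labelled spontaneous, and tumours that came with cobalt treatment. The labels give neither dose nor sex for a sample. They do not tie arrays to separate mice either, and the spread behind every p-value is that between arrays. The description of control 6 names a spontaneous tumour, while its title, source and group give control, and its Birc5 level of 5.38 was the lowest of the controls. All values below are log2 expression values made with RMA, and a difference of 1 is a doubling.

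The high class held spontaneous tumours 6, 2, 5 and 3 and cobalt tumour 1, with Birc5 at 8.92, 8.47, 8.37, 7.87 and 7.77. The low class held spontaneous tumours 4 and 1, at 7.18 and 7.004, and cobalt tumours 5, 2, 3, 4 and 6, at 7.02, 7.01, 6.81, 5.05 and 5.00. Control lung ran from 5.38 to 6.31. The lowest high tumour and the highest low tumour were thus 0.58 apart, while the widest gap between neighbouring tumours was 1.76 and lay inside the low class, between cobalt tumours 3 and 4. Cobalt tumours 4 and 6 lay below every control lung, whereas the other 5 low tumours lay above every control. Birc5 was read by 1 probe set.

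Class and study group overlapped in part. Of the 6 spontaneous tumours 4 were high, and of the 6 cobalt tumours 1 was. Birc5 averaged 7.97 ± 0.76 in spontaneous and 6.44 ± 1.15 in cobalt tumours (SD, n = 6 each), a difference of 1.53. The study group was a covariate in the fits. Xist, the RNA of the inactive X chromosome in females, was at 5.95 to 6.82 in 6 tumours and at 12.10 to 13.08 in the other 6, and all 6 controls had high Xist. Low Xist was found in 4 of 5 high tumours and in 2 of 7 low tumours.

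Cells that divide copy their DNA in S phase under E2F control and then build a spindle, attach chromosomes at kinetochores and separate them in mitosis. Genes of mitosis are repressed in resting cells by a complex that sits on a promoter element called CHR, and are switched on late in the cycle by B-MYB and FOXM1. In tumours their RNA is commonly read as a measure of the share of dividing cells. The other cycle genes placed the tumours as Birc5 did. The mean of 258 genes in 8 cell cycle lists, without Birc5, was 7.34 to 7.74 in the high tumours and 6.64 to 7.22 in the low ones, and the 5 tumours with the highest mean were the same 5. Cobalt tumours 4 and 6, at 6.71 and 6.64, were at the level of control lung, 6.67 to 6.78.

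Genes of mitosis are described before those of replication. Mki67, the antigen of the Ki-67 stain, read 9.66, 8.94, 9.36, 9.06 and 8.70 in the high tumours, given here and below in falling order of Birc5. In the low tumours it ran from 6.20 over a median of 8.14 to 8.54, so that the classes did not overlap, and control lung spanned 6.39 to 7.76. Top2a, the topoisomerase that untangles sister chromatids, read 9.69, 8.94, 9.48, 9.22 and 9.02 against 5.94, 8.09 and 8.46 as the lowest, median and highest of the low tumours. Cdk1, the kinase that drives entry into mitosis, was almost level across the high tumours, at 8.60 to 8.88, and spread from 5.81 to 8.33 in the low ones. Ube2c, the ubiquitin-conjugating enzyme of the anaphase-promoting complex, had the widest separation of these, with 9.45, 8.99, 9.68, 8.82 and 9.18 against 5.98 to 8.27. Its difference with the study group as covariate was 1.64 ± 0.45 (SE), compared with 1.29 ± 0.49 for Top2a, 1.27 ± 0.48 for Cdk1 and 0.93 ± 0.42 for Mki67.

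**Figure D1:**
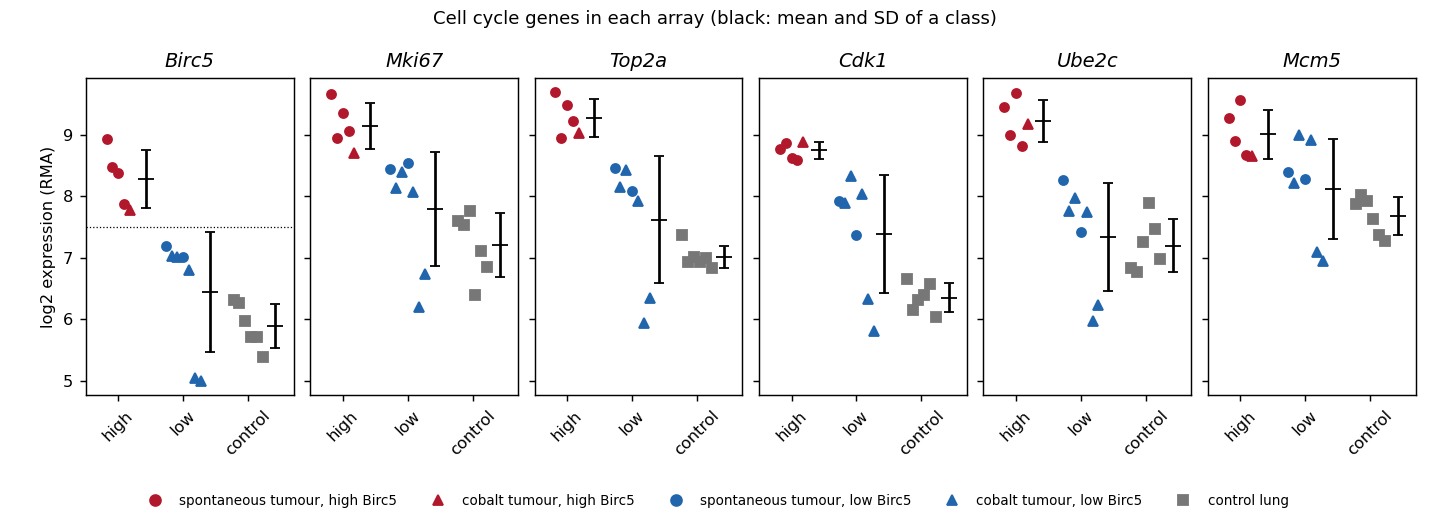
Log2 expression of 6 cell cycle genes in each array, with high tumours, low tumours and control lung along the horizontal axis, circles for spontaneous and triangles for cobalt tumours, squares for controls, and the mean and SD of a class in black. The dotted line at 7.5 set the classes, and cobalt tumours 4 and 6 sit within or below the range of control lung in each panel.

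As groups, the mitosis lists had medians of 0.41 to 0.61. In the 22 mitotic kinases and phosphatases the median difference was 0.61 and 11 genes had all high tumours above all low ones, among them Bub1, the checkpoint kinase, at 7.21 to 8.08 against 4.56 to 6.41, and Aurkb, the kinase partner of survivin, at 6.28 to 7.27 against 4.85 to 5.83. The 37 passenger and kinetochore genes had a median of 0.51 with 14 such genes, and the 49 spindle and cytokinesis genes a median of 0.50 with 14. Chromatin condensation and anaphase-promoting complex genes had a median of 0.41, with 10 such genes among 41. Over all 18193 genes the high tumours lay wholly above the low ones in 120 genes (0.66%) and wholly below in 15 (0.0824%), and the median difference was 0.04. Birc5 is itself a member of the cycle lists and among the 120 genes, and besides it 54 genes of the cycle lists were without overlap. Since Birc5 set the classes, nothing is read from these counts.

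The replication lists had lower medians than the mitosis lists. The median difference was 0.35 in the 22 licensing genes and 0.31 in the 42 genes of DNA synthesis and nucleotide supply, with 1 and 4 genes without overlap. Mcm5, a subunit of the replicative helicase, read 9.27, 8.89, 9.56, 8.67 and 8.65 in the high tumours, while low cobalt tumours 2 and 3 read 8.996 and 8.91. The mean of the licensing list put the same tumours, at 7.60 and 7.61, above high spontaneous tumour 3 and cobalt tumour 1, at 7.45 and 7.53. Rrm2, the regulated subunit of ribonucleotide reductase, was at 11.12 in spontaneous tumour 6 and at 8.26 to 8.53 in the other 4 high tumours, against 5.13 to 8.32 in the low ones. The G1/S list had a median of 0.18 and the homologous repair and Fanconi list 0.15, the latter with 0 of 30 genes without overlap. Over all genes the high tumours lay wholly above the low ones in 0.66% and wholly below in 0.0824%. Nothing is read from the counts of these lists either.

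The values of the regulators of these programmes depended on the probe set. Foxm1 read 7.20 to 7.56 in the high and 6.95 to 7.29 in the low tumours, a difference of 0.25 ± 0.10 (SE). E2f1 differed by 0.05 ± 0.13 and Mybl2, which encodes B-MYB, by 0.09 ± 0.09, with overlapping classes in both. Dimmer probe sets of Foxm1 differed by 0.12, 0.61 and -0.07, those of E2f1 by 0.22 and -0.05 and the other one of Mybl2 by 0.33. Cdc6, a licensing factor and E2F target, was by contrast at 5.91 to 6.92 against 4.59 to 5.80.

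Promoters of the genes that follow Birc5 are shown because the members of the lists move together. The windows run from 250 bases before to 50 after the start, 5′ to 3′, and come from RefSeq for build GRCm38.p6: Birc5 at chr11:117848987-117849286 on the plus strand, Top2a at chr11:99024140-99024439 on the minus strand, Ube2c at chr2:164769679-164769978 on the plus strand and Mcm5 at chr8:75109259-75109558 on the plus strand. Capitals mark matches on either strand to CHR (TTTGAA), the CCAAT box (CCAAT) and, for E2F, any of TTTGGCGC, TTTCCCGC, TTTCGCGC and TTTGCCGC. Birc5 is the gene of the rule, Top2a and Ube2c are mitotic genes and Mcm5 is a replication gene.
Birc5: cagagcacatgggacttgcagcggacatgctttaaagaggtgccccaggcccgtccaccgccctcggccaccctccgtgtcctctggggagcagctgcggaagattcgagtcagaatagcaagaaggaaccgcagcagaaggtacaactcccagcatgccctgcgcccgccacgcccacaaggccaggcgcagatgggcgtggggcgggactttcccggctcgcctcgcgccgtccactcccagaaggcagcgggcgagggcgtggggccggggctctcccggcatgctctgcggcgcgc
Top2a: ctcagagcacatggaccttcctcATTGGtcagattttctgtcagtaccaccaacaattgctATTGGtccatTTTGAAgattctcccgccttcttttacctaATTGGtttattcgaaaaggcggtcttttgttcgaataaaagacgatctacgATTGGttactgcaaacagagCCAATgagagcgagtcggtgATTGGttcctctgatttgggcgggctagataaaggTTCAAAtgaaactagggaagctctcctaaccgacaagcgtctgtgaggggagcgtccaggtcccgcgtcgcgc
Ube2c: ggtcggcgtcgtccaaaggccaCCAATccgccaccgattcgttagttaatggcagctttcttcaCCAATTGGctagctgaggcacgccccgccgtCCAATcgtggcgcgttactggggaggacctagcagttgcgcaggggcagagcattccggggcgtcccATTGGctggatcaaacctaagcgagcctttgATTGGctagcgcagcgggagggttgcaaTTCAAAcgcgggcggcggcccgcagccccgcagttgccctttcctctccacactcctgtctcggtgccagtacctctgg
Mcm5: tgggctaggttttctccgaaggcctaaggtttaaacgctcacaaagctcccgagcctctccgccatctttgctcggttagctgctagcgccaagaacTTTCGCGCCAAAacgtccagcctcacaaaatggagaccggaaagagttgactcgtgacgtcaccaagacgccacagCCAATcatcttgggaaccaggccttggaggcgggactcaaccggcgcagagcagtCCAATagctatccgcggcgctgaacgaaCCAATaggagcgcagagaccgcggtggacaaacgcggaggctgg
Top2a has CHR at -179 and -23 from the start and 6 CCAAT boxes, and Ube2c has CHR at -29 and 6 CCAAT boxes, of which the pair at -186 and -183 overlaps. Mcm5 has overlapping E2F matches at -153 and -149 and CCAAT at -77, -22 and 7. The Birc5 window holds none of these letters, which says only that they are not in this window.

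Over the 4 mitosis lists, 123 of 146 genes matched the promoter table with 136 promoters, of which 53.7% hold CHR, 67.6% CCAAT and 11.8% an E2F match. Of the 61 promoters of the licensing and DNA synthesis lists, 18.0% hold CHR, 57.4% CCAAT and 31.1% E2F. Among all 32851 promoters of the same length the shares are 17.9%, 37.4% and 2.26%. A match is a description of letters and shows no binding.

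Beyond the cell cycle, the comparison of the classes called no gene. With limma on the 12 tumours, study group as covariate and Benjamini-Hochberg adjustment, 0 of 18193 genes were higher (0%) and 0 lower (0%) at an adjusted p under 0.05, and the smallest adjusted p was 0.667. At an unadjusted p under 0.05 there were 776 genes higher (4.27%) and 556 lower (3.06%), together 7.32%. The same count of 0 in both directions was found in all alternatives that kept 2 classes, with smallest adjusted p between 0.0564, when cobalt tumours 4 and 6 were left out, and 0.9997, with the endothelial list mean as a covariate. The values that follow for the classes are therefore differences that did not pass the test.

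The 12 genes with the smallest p on the higher side differed by 0.31 to 0.74. Hspbp1, a nucleotide exchange factor of HSP70, read 9.17, 9.30, 9.29, 9.20 and 9.28 in the high tumours and 8.76, 8.86 and 8.99 as lowest, median and highest of the low ones. The classes did not overlap, the difference was 0.42 ± 0.07 (SE, limma adjusted p = 0.667), and control lung, at 8.65 to 8.94, lay with the low tumours. Fam114a2 read 9.51 to 9.64 against 9.07 to 9.35, and Dhrs13, a short-chain dehydrogenase, 7.12 to 7.62 against 6.69 to 6.97. Chchd5, a protein of the mitochondrial intermembrane space, read 8.17 to 8.70 against 7.18 to 8.08, a difference of 0.74 ± 0.17. Mapk7, the kinase ERK5, read 7.78 to 8.08 against 7.44 to 7.64, and Lmf2, an endoplasmic reticulum protein, 9.32 to 9.52 against 9.06 to 9.28. In Mapk7 the control lungs, at 7.79 to 8.11, lay with the high tumours, and in Lmf2, at 9.44 to 9.88, at or above them. Med24, a subunit of the Mediator complex, differed by 0.40 ± 0.09 without overlap, and a dim second probe set by -0.04.

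The remaining 5 of these 12 genes overlapped between the classes. Igf2bp1, an oncofetal RNA-binding protein, differed by 0.41 ± 0.08 (SE), and cobalt tumour 1 alone reached 6.89 while the others spanned 6.07 to 6.52. Hdgf, the hepatoma-derived growth factor, differed by 0.46 ± 0.11 and Maz, a zinc finger factor, by 0.58 ± 0.13. Pnpla6, a lysophospholipase, read 8.95 to 9.30 in the high tumours and 8.56 to 8.69 in 6 low tumours, with cobalt tumour 4 at 9.03. Lsm11, a component of the snRNP that processes histone RNA, differed by 0.38 ± 0.09. Outside the cycle lists 65 genes had every high tumour above every low one, 52 of them not among the 6064 dimmest genes. The 65 still include Pclaf, a cycle gene by its known function, so they are not all genes beyond the cell cycle. In the opposite direction there were 15 genes, 12 of them not among the dimmest. Over all 18193 genes, cycle genes included, the shares were 0.66% above and 0.0824% below, and 55 of the 120 genes above were in the cycle lists.

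Among the 12 genes with the smallest p on the lower side, Marco, the scavenger receptor of alveolar macrophages, read 8.82, 6.78, 9.51, 9.16 and 7.71 in the high tumours. It read 8.48, 10.22 and 12.08 as the lowest, median and highest of the low ones, a difference of -2.51 ± 0.61 (SE, limma adjusted p = 0.667). The classes overlapped through cobalt tumours 4 and 2, and control lung was at 7.69 to 8.37. Of the same 12 genes Lcp2, an adaptor of antigen receptor signalling, differed by -0.81, Plek, the kinase substrate pleckstrin, by -1.12, Nfam1, a receptor of immune cells, by -0.43, Wdfy4, a factor of cross-presentation, by -1.003 and Cnr2, the cannabinoid receptor CB2, by -0.65. In each of these and in Marco, spontaneous tumour 1 was the highest of the 12 tumours. Cobalt tumour 1 was the lowest in all but Marco. Ccn3, a matricellular protein, differed by -2.68 ± 0.67, with 10.80 in spontaneous tumour 1 and 10.12 in cobalt tumour 6 against at most 8.52 elsewhere. Lepr, the leptin receptor, differed by -1.24 ± 0.24 and was far below control lung in all tumours, at 5.50 to 7.78 against 8.93 to 9.53. The other probe sets of Lepr differed by -0.36, by -1.25 and, in the dimmest, by 0.18, and the other one of Wdfy4 by 0.16. Fbxo9, an F-box protein, was the only one of the 12 without overlap, at 9.12 to 9.84 against 9.85 to 10.17, a margin of less than the spread within either class.

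Outside the cycle, most cell type lists had a median difference below 0, while most of the other lists had one above 0. Of all genes 58.6% had a higher mean in the high tumours, but the balance depended on the processing. At an unadjusted p under 0.05, 776 genes were higher and 556 lower in the main fit. The counts were 471 and 720 with cyclic loess normalization, and 379 and 463 without the 6064 dimmest genes. No gene of these lists was called between the classes. Endothelial genes had a median difference of -0.75, with 29 of 31 lower and 14 of these at an unadjusted p under 0.05. Of all genes 41.4% had a lower mean, and 3.06% were lower at that p. Tek, the angiopoietin receptor, read 6.91, 7.95, 7.78, 6.81 and 5.92 in the high tumours and 7.09, 8.31 and 10.72 as lowest, median and highest of the low ones, far under control lung at 11.49 to 11.93. Calcrl, the adrenomedullin receptor, differed by -2.21 ± 0.66 (SE), and Pecam1, the junction protein CD31, by -1.13 ± 0.44. The list mean was 7.90 to 8.81 in the high and 8.11 to 10.14 in the low tumours against 11.01 to 11.39 in control lung, with cobalt tumour 6 nearest the controls. In bulk tissue, fewer cells of a type and less RNA per cell cannot be told apart.

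The larger cell type lists of lung epithelium had medians below 0. Alveolar type 1 genes, of the flat gas-exchange cells, had a median of -0.91 with 20 of 20 lower, ciliated cell genes -0.52 with 21 of 21, and alveolar type 2 genes, of the surfactant-producing cells, -0.52 with 22 of 22. Ager, a type 1 marker, read 12.87, 12.11, 13.39, 14.05 and 13.55 in the high tumours and 13.45 to 14.47 in the low ones, a difference of -0.68 ± 0.34 (SE), and the classes overlapped. Club and airway secretory genes had a median of -1.02 with 14 of 20 lower. Scgb1a1, the club cell secretoglobin, was at 9.97 in high cobalt tumour 1 and at 10.27 in low cobalt tumour 4 and between 12.62 and 14.97 in the other 10. Basal cell genes had a median of 0.11 with 9 of 11 higher and neuroendocrine genes one of 0.16 with 7 of 9 higher. The median of all genes was 0.04. Moreover, 6 of the 11 basal and 7 of the 9 neuroendocrine genes are among the 6064 dimmest genes, so little can be read from them. Heart muscle genes, which in mouse lung come from the pulmonary veins, had a median of -0.50, and fibroblast and matrix genes one of -0.34 with Pdgfra at 7.84 to 9.43 against 8.14 to 11.88.

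The endothelial list mean was tried as a further covariate, which holds the median of that list near 0 by construction. Under it the medians were -0.04 for type 1, 0.13 for ciliated, -0.13 for club, 0.03 for heart muscle and 0.03 for fibroblast genes, but -0.34 for type 2 genes. The medians of the mitosis lists were lower with this covariate too, at 0.43 for the kinases, 0.34 for passenger and kinetochore genes, 0.38 for spindle genes and 0.20, compared with 0.41, for chromatin condensation and anaphase-promoting complex genes.

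**Figure D2:**
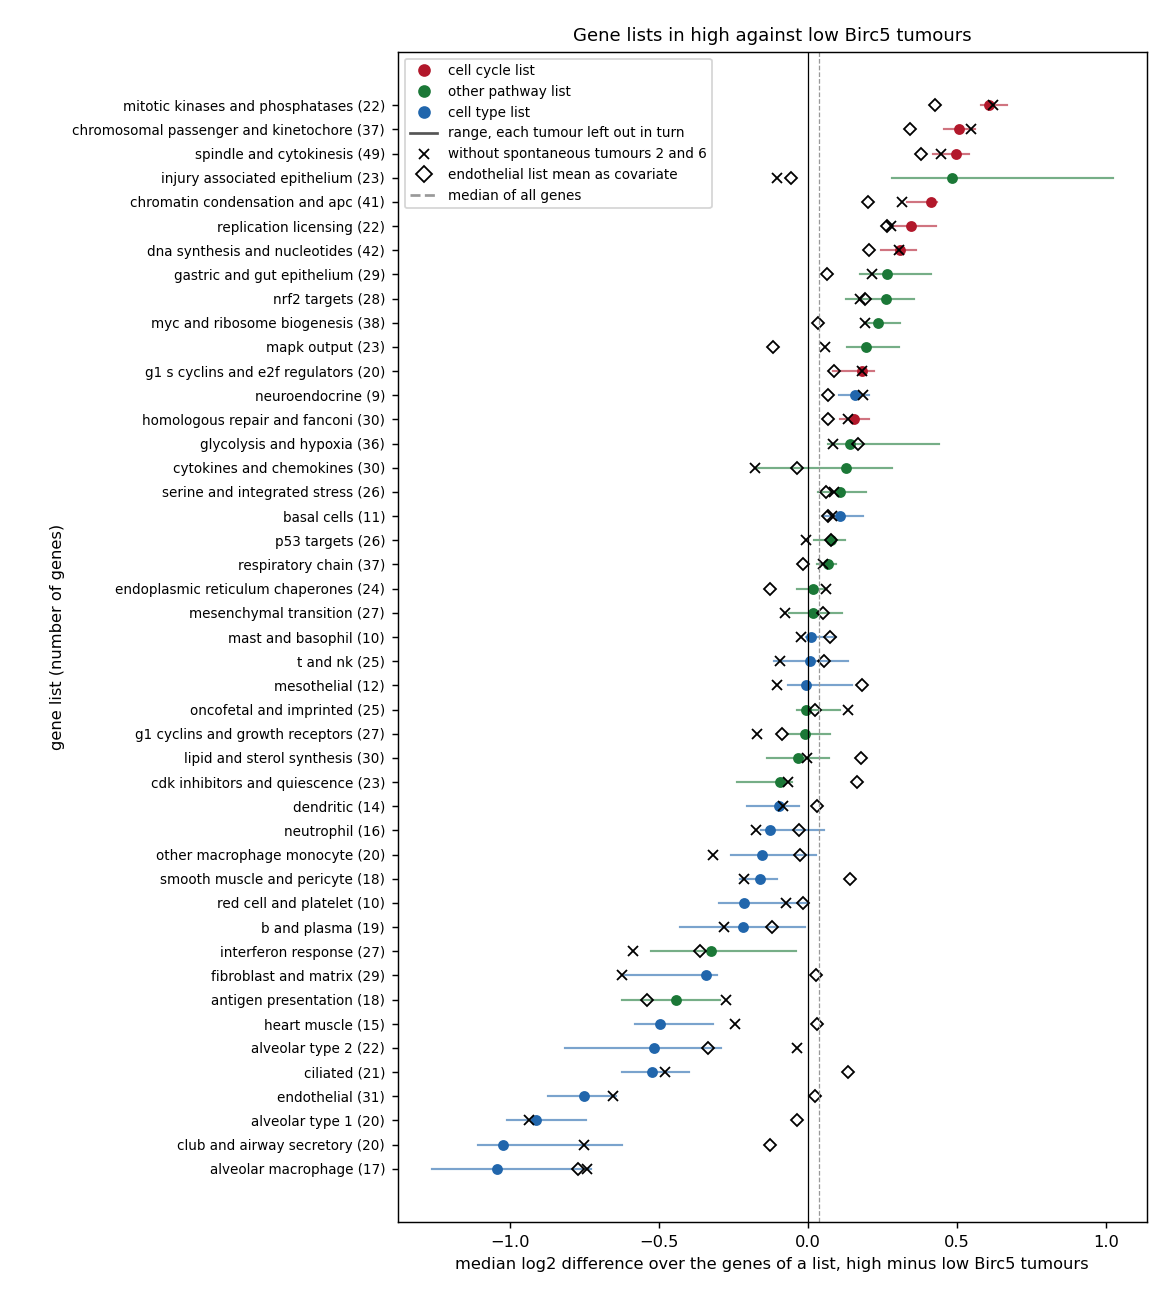
Median log2 difference (high minus low Birc5 tumours) of the genes of each of 45 lists, with the number of genes in brackets, the range with each tumour left out in turn as a line, the median without spontaneous tumours 2 and 6 as a cross and with the endothelial list mean as a covariate as a diamond. The mitosis lists stay above 0 under each of these, while the type 1 list goes from -0.91 to -0.04 with the covariate.

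Alveolar macrophage genes had the lowest median difference of all lists between the classes, -1.04. With the Birc5 level taken per log2 unit in place of the classes, their median slope was -0.13. That of type 1 genes was -0.50, that of endothelial genes -0.47 and that of ciliated genes -0.37. In the macrophage list 16 of 17 genes were lower between the classes and 7 of these at an unadjusted p under 0.05, against 3.06% of all genes. Their median was -0.77 with the endothelial covariate and -0.73 without spontaneous tumour 1, whose list mean of 10.97 was the highest and lay above 8.15 to 9.03 in control lung. The other low tumours had 8.41 to 9.98 and the high tumours 8.46 to 9.72, ranges that pool both study groups. Low spontaneous tumour 4, at 9.98, lay above the high spontaneous tumours, at 8.96 to 9.72. Among cobalt tumours, the high tumour 1 had 8.46 and the low tumours 8.41 to 9.55. Plet1, a surface protein listed with these macrophages, differed by -0.98 ± 0.27 (SE), and its dimmer probe sets by -0.68 and 0.05. Other macrophage and monocyte genes had a median of -0.16, and B and plasma cell, neutrophil, dendritic, T and NK cell and mast cell genes had medians between -0.22 and 0.01.

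Antigen presentation genes were lower in 18 of 18, with a median of -0.44, and interferon-induced genes in 24 of 27, with a median of -0.33. Per log2 unit of Birc5 the median slopes of these lists were -0.08 and -0.04, next to 0.02 for all genes. Without cobalt tumour 1 the median difference of the interferon list between the classes was -0.04. This is the same estimate as in spontaneous tumours alone, since no cobalt tumour is then high. Cd74, the invariant chain of MHC class II, shows how the high tumours differed among themselves, with 12.52 and 12.69 in spontaneous tumours 6 and 2 and 13.63 to 14.12 in the other 3, against 13.09 to 14.11 in the low tumours. Without spontaneous tumours 2 and 6 the difference of Cd74, -0.39, became 0.04, but the median of the antigen presentation list was still -0.28. The interferon list had its highest mean of the 12 tumours in high spontaneous tumour 2, at 8.99, and its lowest in high cobalt tumour 1, at 6.90.

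The high tumours were thus not of a single kind. Spontaneous tumours 6 and 2 had the lowest means of the type 2 list among all 12 tumours, 11.57 and 11.85, below control lung at 12.12 to 12.40. They had the highest means of the injury-associated epithelial list, 11.14 and 11.50. High spontaneous tumours 5 and 3 and cobalt tumour 1 had type 2 means of 13.01, 13.38 and 12.75, where the low tumours had 12.57 to 13.37. Their injury means were 9.21, 9.29 and 9.67, within the 9.13 to 10.79 of the low tumours. Hmga2, an oncofetal chromatin protein, was at 11.09 and 11.41 in spontaneous tumours 6 and 2 and at 5.74 to 7.12 in the other 10, and Nkx2-1, the lung lineage factor, at 7.15 and 7.20 against 7.76 to 8.86. Myc was at 10.22 and 9.83 in these tumours, but low cobalt tumour 5 reached 9.94. The median of the type 2 list was -0.04 and that of the injury list -0.11 without spontaneous tumours 2 and 6, compared with -0.52 and 0.48 with them.

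**Figure D3:**
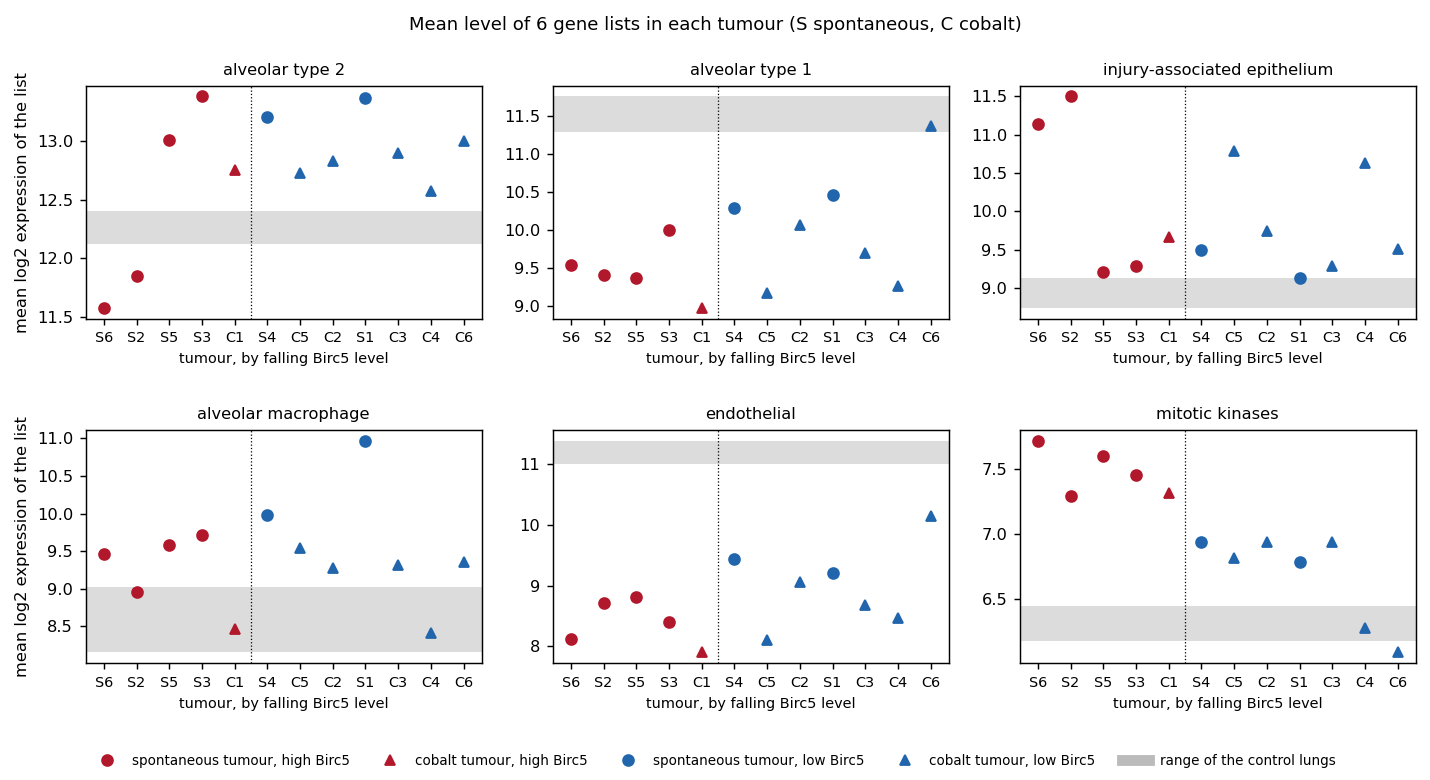
Mean log2 expression of 6 gene lists in each tumour, ordered by falling Birc5 level, with high tumours in red left of the dotted line, low tumours in blue and the range of control lung in grey. The mitotic kinase list separates the classes, whereas the type 2 and injury lists set spontaneous tumours 6 and 2 apart from the other 3 high tumours.

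No gene of the growth and metabolism lists was called between the classes. In the MYC and ribosome biogenesis list 37 of 38 genes had a higher mean, with a median of 0.24, and Nop56, a nucleolar protein, differed by 0.58 ± 0.21 (SE), whereas Ddx21, a nucleolar helicase, differed by -0.47 ± 0.14. The list median was 0.03 with the endothelial covariate. NRF2 targets had a median of 0.26, or 0.19 with that covariate. MAPK output genes had a median of 0.19, which was -0.12 with the covariate and 0.06 without spontaneous tumours 2 and 6, and Junb, an AP-1 factor, differed by 1.04 ± 0.29. Glycolysis and hypoxia genes had a median of 0.14 and one of 0.44 in spontaneous tumours alone. The median was 0.07 for respiratory chain genes and 0.08 for p53 targets, next to 0.04 for all genes. Hk2, the hexokinase of many tumours, was far above control lung in all 12 tumours, at 9.93 to 11.45 against 8.05 to 8.70, and differed by 0.03 ± 0.32 between the classes. Ldha, lactate dehydrogenase A, read 12.44 to 13.26 against 12.15 to 12.85.

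The brakes and drivers of G1 showed no common direction. The 23 cell cycle inhibitor and quiescence genes had a median of -0.09. Cdkn1a, which encodes p21, read 11.19 to 12.12 in the high and 10.65 to 11.58 in the low tumours, a difference of 0.45 ± 0.23 (SE). Cdkn2a, the locus of p16 and ARF, was between 4.99 and 6.90 in the high and 5.34 and 6.81 in the low tumours. Ccnd1 differed by 0.14 ± 0.30, and Ccnd2, another D-type cyclin, by -1.40 ± 0.38 with overlapping classes. Egfr differed by 0.27 ± 0.22, read 8.64 in spontaneous tumour 6, and 3 of its 6 other probe sets differed in the opposite sign. Ccnb1 and Hmga1 were not analysed here.

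The Birc5 level itself, taken per log2 unit in place of the classes, gave calls. This fit was followed up after the data were seen. With limma on the 12 tumours, study group as covariate and Birc5 left out, 44 of 18192 genes rose with Birc5 (0.242%) and 9 fell (0.0495%) at an adjusted p under 0.05. Of those that rose, 41 were in the cycle lists, from which nothing is read: 10 each among the mitotic kinases and the passenger and kinetochore genes, 9 spindle genes, 7 in the condensation list and 2 each in the licensing, DNA synthesis and G1/S lists, with a gene counted in each list that holds it. Outside them were Pclaf, Mllt11 and Ercc6l. All 9 genes that fell were outside the cycle lists: Clic5, Gpcpd1, Sh3rf2, Fry, Rasgrf2, Eogt, Abhd17c, Smoc2 and Clba1.

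Of the 3 genes outside the lists, Pclaf and Ercc6l are cycle genes by their known function, so that they are described without a p and nothing is read from them. Pclaf, a partner of the replication clamp PCNA, read 10.43, 9.56, 9.69, 9.58 and 9.54 in the high tumours and 7.78, 9.09 and 9.30 as lowest, median and highest of the low ones. Its slope was 0.58 ± 0.06 (SE) per log2 unit of Birc5. Ercc6l, a helicase of the mitotic centromere known as PICH, read 6.51 to 7.45 against 5.82 to 6.57, with a slope of 0.37 ± 0.06. Mllt11, a gene fused to KMT2A in leukaemia, read 8.14 to 8.61 against 7.33 to 8.41 and rose by 0.40 ± 0.06 (limma adjusted p = 0.0165). In Mllt11 low cobalt tumours 5, 3 and 2, at 8.41, 8.39 and 8.29, were level with the high tumours, and control lung was at 6.999 to 7.45.

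Clic5 had the steepest slope of the 9 genes that fell. It encodes a chloride intracellular channel protein bound to the actin cortex and stands in the type 1 list. It read 8.48, 9.12, 8.43, 9.97 and 7.84 in the high tumours. In the low tumours it read 9.18, 10.31 and 11.73 as lowest, median and highest, with cobalt tumours 6 and 4 at 11.73 and 10.60, and control lung was higher still, at 12.04 to 12.39. It fell by 1.10 ± 0.14 (SE) on the log2 scale per log2 unit of Birc5 (limma adjusted p = 0.00617). Within spontaneous tumours alone the slope was -1.14 and within cobalt tumours alone -1.07. Hopx, another type 1 gene, had a slope of -0.61 ± 0.16 and Ager one of -0.40 ± 0.15, neither of which passed the test.

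Among the other genes that fell, Gpcpd1, a glycerophosphocholine phosphodiesterase, read 8.65, 8.55, 9.07, 9.39 and 7.95 in the high tumours and 8.65 to 10.27 in the low ones. It fell by 0.60 ± 0.08 (SE) per log2 unit of Birc5 (limma adjusted p = 0.0107). Sh3rf2, a ubiquitin ligase with SH3 domains, fell by 0.60 ± 0.09 (limma adjusted p = 0.0137) and was at 8.86 and 8.87 in cobalt tumours 4 and 6, above the 6.72 to 8.03 of the other 10. Fry, a scaffold of NDR kinases, fell by 0.86 ± 0.13 (limma adjusted p = 0.0201), while 2 of its 3 other probe sets differed between the classes in the opposite sign. Rasgrf2, an exchange factor of RAS and RAC, fell by 0.85 ± 0.14 (limma adjusted p = 0.0331), and its control level of 9.38 to 9.71 lay above all tumours. Eogt, a glycosyltransferase of the endoplasmic reticulum, was the only one of the 9 whose classes did not overlap, at 8.45 to 8.64 against 8.73 to 9.62. The slopes of Eogt, the depalmitoylase Abhd17c, the matrix protein Smoc2 and the clathrin-binding Clba1 ran from -0.34 to -0.25 with limma adjusted p of 0.0358 to 0.0458, and Smoc2 is among the 6064 dimmest genes.

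**Figure D4:**
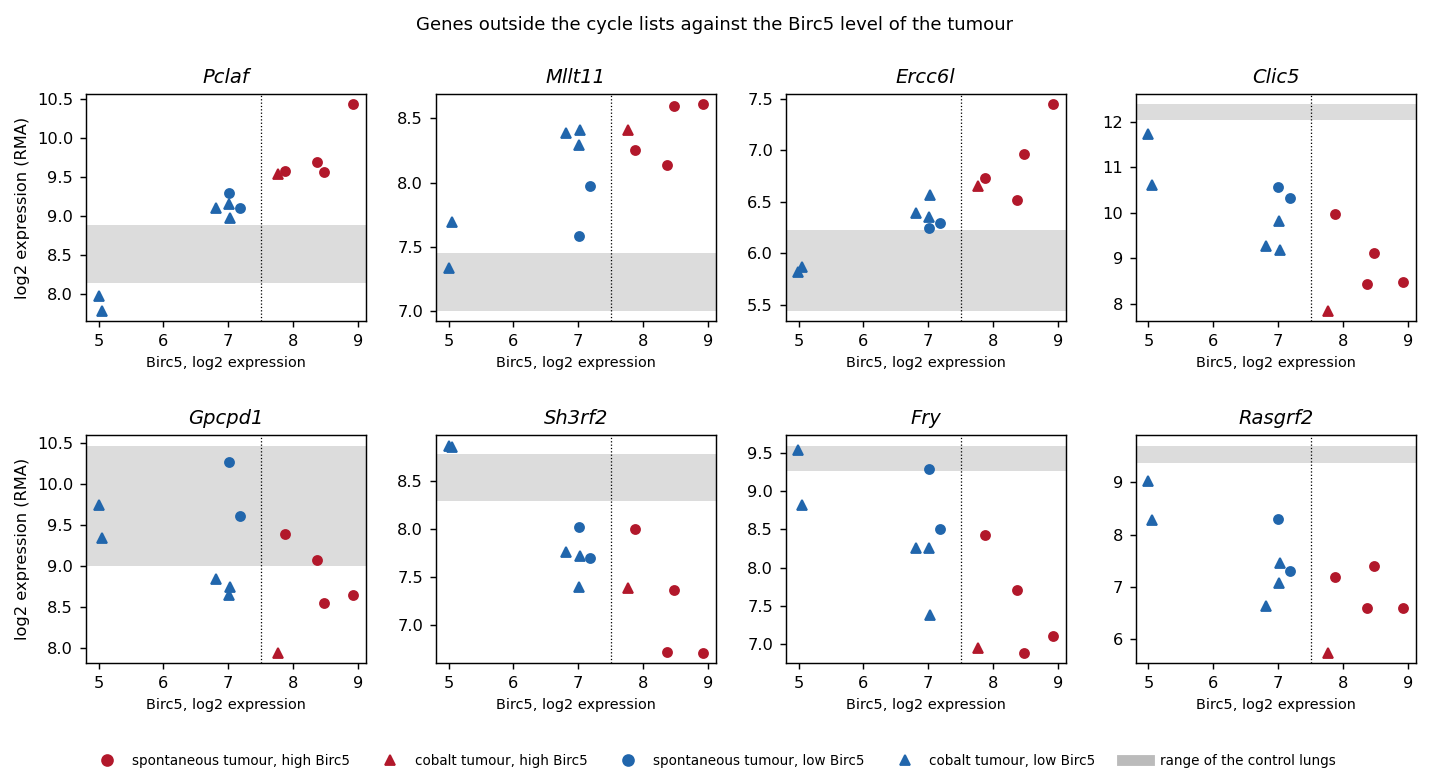
Log2 expression of the 3 genes that rose and 5 of the 9 that fell outside the cycle lists, against the log2 Birc5 level of each of the 12 tumours, with the range of control lung in grey and the class threshold of 7.5 dotted. Cobalt tumours 4 and 6, at the left, have the highest Clic5 and Sh3rf2 and the lowest Pclaf of the 12 tumours.

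The number of genes called per unit of Birc5 changed with the tumours left out, and the cause was not tested. With all 12 tumours 2205 genes had an unadjusted p under 0.05. Without cobalt tumours 4 and 6 together 0 genes rose and 0 fell, with a smallest adjusted p of 0.0547 and 2447 genes at an unadjusted p under 0.05, while all 12 genes named above kept their sign. The slope of Clic5 was then -1.24 with a limma adjusted p of 0.0706 and that of Gpcpd1 -0.82 with 0.0706. Without cobalt tumour 4 alone 326 genes rose and 639 fell, and without cobalt tumour 6 alone 24 and 3. Without spontaneous tumour 1 there were 24 and 2, and without cobalt tumour 1 there were 21 and 1. Without spontaneous tumour 5 or 6 or cobalt tumour 2 or 3 the genes that fell numbered 5, 5, 5 and 4. Clic5 passed in each of the 12 fits that left out 1 tumour, but most of the other genes outside the cycle lists did not. Of these 12 genes, 2 passed without cobalt tumour 6, 3 without cobalt tumour 1 and 3 without spontaneous tumour 1. Among the fits that left out 1 tumour, Eogt and Clba1 passed only without cobalt tumour 4.

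The tumours with the lowest Birc5, cobalt tumours 6 and 4, differed in markers of normal lung cells. Cobalt tumour 6 had the highest endothelial mean, 10.14, type 1 mean, 11.36, and ciliated mean, 7.91, of the 12 tumours, near control lung at 11.29 to 11.76 for type 1. Cobalt tumour 4 did not, with 8.47 for endothelial and 9.26 for type 1 genes, although its cycle genes were at the control level. With the endothelial mean as a covariate 14 genes rose and 0 fell, with 434 lower at an unadjusted p under 0.05, and Clic5 had a slope of -0.87 (limma adjusted p = 0.194). In that fit 0 of the 12 genes named outside the cycle lists passed, and Mllt11 had a slope of 0.34 (limma adjusted p = 0.381). With Xist class as a covariate 37 rose and 6 fell. Within spontaneous tumours alone, cobalt tumours alone and the 6 tumours with low Xist, 0 genes passed in either direction, with 2080, 1297 and 778 genes at an unadjusted p under 0.05.

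Further genes outside the cycle lists followed Birc5 closely without passing the test. With study group means removed, over 12 tumours, Pearson's r was 0.90 for Gid8, a subunit of a ubiquitin ligase, 0.90 for Gnpda1, of hexosamine breakdown, 0.90 for Ints3, of the Integrator complex, and 0.89 for Mrpl45. Spearman's rho was 0.91, 0.79, 0.77 and 0.83. In the opposite direction r was -0.87 for Pja2, a ubiquitin ligase, and -0.87 for Rrm2b, the ribonucleotide reductase subunit induced by p53, with rho of -0.83 and -0.80. Without cobalt tumours 4 and 6 these 6 values of r were 0.89, 0.83, 0.85, 0.89, -0.87 and -0.78. They are a description of 12 arrays that share study groups. The other probe sets of Gid8 differed between the classes by -0.03 and -0.20, opposite in sign to its r.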

How the data were processed

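RNA from 18 samples was measured on 1-colour Affymetrix arrays. The values the authors deposited are on a log2 scale and come from RMA, according to the submitters' processing notes. The RMA version is not given in the sources used here. RMA makes array distributions alike, so it can hide a shift of all genes. Values ran from 3.34 to 15.26 and array medians from 6.32 to 6.45. The number of arrays limits the precision. Of 45101 probe sets, 34945 had 1 gene symbol, and each of 18193 genes was represented by its brightest probe set by mean over 18 arrays.

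Classes came from Birc5. limma 3.58.1 in R 4.3.3 (lmFit, eBayes) fitted class and study group on 12 tumours, two-sided, adjusted by Benjamini-Hochberg, after testing on simulated data. The members, the 45 gene lists and the tests were chosen with earlier results of these data known. Of 1182 list entries, 1099 matched. Named outside the cycle lists were the 12 smallest p in each direction, not among the 6064 dimmest genes, since none was called. Also named were up to 2 genes per list by p, a list of genes always named, and the 10 genes closest to Birc5 in each direction. Genes called per unit of Birc5 were added after the data were seen. Alternatives covered normalization, filtering, probe sets, covariates, variance model and left-out arrays. The labels' replicate numbers did not pair tumours, as the correlations of same-numbered deviations were -0.34 to 0.19. An interaction of class and study group was not fitted, because cobalt tumours held 1 high tumour.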

Additional observations from a re-analysis of the deposited data

Results flagged for a closer look

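In 13 of 177 combinations of a gene and a group, over 59 genes, the highest or lowest array lay far from the rest by Dixon's criterion, which by chance singles out about 1 in 20 groups.

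Spontaneous tumour 6 stood above the other high Birc5 tumours in cycle genes and in Egfr: Rrm2 was at 11.12 against 8.26 to 8.53, Pclaf at 10.43 against 9.54 to 9.69, and Egfr at 8.64 against 7.44 to 7.74. Cobalt tumour 1 stood below the other high tumours in Plek, at 8.23 against 9.67 to 10.10.

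Among the low Birc5 tumours, cobalt tumour 4 was high in Pnpla6, at 9.03 against 8.56 to 8.69, and low in Scgb1a1, at 10.27 against 14.17 to 14.97. Cobalt tumour 6 was low in Chchd5, at 7.18 against 7.73 to 8.08, and in Dhrs13, at 6.69 against 6.86 to 6.97. Spontaneous tumour 1 was low in Cdkn1a, at 10.65 against 11.27 to 11.58.

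In control lung, control 1 was high in Gpcpd1, at 10.47 against 9.0 to 9.38, and in Nfam1, at 9.03 against 6.36 to 6.93. Control 2 was high in Med24, at 8.90 against 8.26 to 8.45, and control 4 in Top2a, at 7.37 against 6.83 to 7.01. The controls do not enter the comparison of the tumours.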

How the results depend on the processing

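The comparison of the classes gave 0 genes in both directions in 27 of 28 alternatives, among them each tumour left out in turn (0 to 0), and 44 that rose and 9 that fell with the Birc5 level as a continuous covariate. With the replicate block it gave 0 and 0, with 1368 genes at an unadjusted p under 0.05. Class within cobalt tumours alone and its interaction with study group were not run, since 1 cobalt tumour was high. Of the genes that rose or fell with the Birc5 level, 24 and 5 passed without the 6064 dimmest genes, 37 and 4 with the mean of all probe sets, 113 and 25 without the group covariate, and 14 and 0 with the endothelial covariate. There were 0 and 0 with the replicate block (2386 genes at an unadjusted p under 0.05), and 0 and 0 in spontaneous tumours alone, cobalt tumours alone, without cobalt tumours 4 and 6 and in tumours with low Xist. With 1 tumour left out, 21 to 326 rose and 1 to 639 fell. The cause of these shifts was not tested.

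Of 1846 values of 66 named genes under the alternatives, 32 in 8 genes had another sign than the main value, and none of these was called in the comparison of classes. The log2 difference of E2f1 was -0.0094 with loess, -0.0002 with array weights, -0.0332 with the replicate block and -0.0483 without spontaneous tumours 2 and 6. The log2 difference of Cdkn2a was 0.0669 with the block, 0.0914 per unit of Birc5, -0.3872 to 0.2636 with 1 tumour left out (above 0 without spontaneous tumour 3, 4 or 6), and 0.4547 in tumours with low Xist. The log2 difference of Ccnd1 was -0.4503 with the endothelial covariate, -0.0363 without spontaneous tumours 2 and 6 and -0.3512 with low Xist. Without spontaneous tumours 2 and 6 the log2 difference of Myc was -0.2072, the log2 difference of Hmga2 -0.1835 and the log2 difference of Cd74 0.0379, and that of Myc was -0.3254 with the endothelial covariate. The log2 difference of Nkx2-1 was 0.0194 with array weights, -0.3135 to 0.0226 with 1 tumour left out (above 0 without spontaneous tumour 2 or 6), 0.279 without both and 0.0453 with low Xist. The log2 difference of Hk2 was -0.1983 without the group covariate, -0.0176 with Xist class and -0.6227 with the endothelial covariate. With 1 tumour left out it was -0.0802 to 0.1401 (below 0 without spontaneous tumour 1, 3 or 6 or cobalt tumour 3 or 6), without cobalt tumours 4 and 6 -0.0244 and with low Xist -0.1571. List medians kept their sign in 1142 of 1260 values. No detection calls were used, so fold changes of dim genes may be too small.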
